A study of Homo sapiens with 18 samples.

Results

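Growth factor receptors and growth factors of IMR90 cells were followed through the messenger RNA (mRNA) and the ribosome footprints of the same cultures. The 10 genes were taken by name, 6 receptor tyrosine kinases (PDGFRA, PDGFRB, EGFR, FGFR1, IGF1R and MET) and 4 secreted ligands (HGF, FGF2, FGF7 and EREG), and all 10 were among the 38716 gene symbols of each table. IMR90 cells are primary fibroblasts from human fetal lung. Young cells were proliferating, old cells were replicatively senescent after serial passage, and ICM cells had received inflachromene, a compound whose targets are HMGB1 and HMGB2, proteins of chromatin. All 3 conditions thus share IMR90 cells with no genetic change, and the study's methods describe the replicates as independently grown cultures. mRNA-seq and Ribo-seq, which sequences the RNA fragments that ribosomes protect, were each done on 3 young, 3 old and 3 ICM lysates, 18 libraries in all. The labels name no batch, so a batch that coincided with a condition cannot be told apart from it. The study's methods describe the 3 conditions together, but its text also mentions equivalent data of senescent cells made earlier, and whether the old libraries were made at another time than the young and ICM ones is not given in the sources used here.

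Receptor tyrosine kinases span the plasma membrane, and a bound ligand brings their kinase domains together, which starts signalling through RAS and the MAP kinases and through PI3 kinase and AKT. PDGF receptors, encoded by PDGFRA and PDGFRB, are characteristic of mesenchymal cells and drive the growth and migration of fibroblasts. Fibroblasts also supply ligands to neighbouring cells: HGF acts on MET and FGF7, also called keratinocyte growth factor, on the epithelial form of FGFR2, while FGF2 binds FGFR1 and EREG (epiregulin) binds EGFR and ERBB4.

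Values are CPM, the reads of a gene per 1000000 reads of its library after TMM scaling of the depth. The mRNA level summed reads of the 5′ UTR, the coding sequence (CDS) and the 3′ UTR, and the footprint level used the CDS. mRNA-seq libraries held 7902427 to 14144455 such reads, and Ribo-seq libraries only 46239 to 1718521, with fewer than 100000 in young replicate 1, old replicate 2 and ICM replicates 2 and 3. In old replicate 2 the CDS took 15.0% of the Ribo-seq reads and in young replicate 1 34.4%, against 54.7% to 88.8% in the other 7. Of the 5 genes that check the state of the cells, MKI67, TOP2A, LMNB1 and HMGB2 fell and CDKN1A rose in mRNA-seq in both ICM vs young and old vs young. All 10 fibroblast markers were found at 1 CPM or more in every condition, whereas the 5 epithelial and 4 immune markers were all below 1 CPM on average, and of the 5 endothelial markers CDH5 was at 0 in mRNA-seq and only TEK exceeded 5 CPM. Changes are on the log2 scale with their standard error (SE), and a gene was called at a Benjamini-Hochberg adjusted p under 0.05 in edgeR's two-sided quasi-likelihood test over all genes that passed the filter on low counts.

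The start codon of the canonical GENCODE transcript on GRCh37 is shown for the 5 genes on which the results below turn. The ATG is in capitals, with 9 bases before it and 3 after it on the spliced transcript. Whether the counted footprints begin there is not known, because the isoforms behind the counts are not stated.
PDGFRA: cccagagctATGggg
PDGFRB: aaggacaccATGcgg
MET: cctctcataATGaag
HGF: agcagcaccATGtgg
FGF7: tacactataATGcac
These ATGs begin at position 55124936 of chromosome 4 (+ strand) for PDGFRA, 149516610 of chromosome 5 (− strand) for PDGFRB, 116339139 of chromosome 7 (+) for MET, 81399287 of chromosome 7 (−) for HGF and 49716495 of chromosome 15 (+) for FGF7. All 5 hold ANNATG or GNNATG, as did 8 of the 9 genes read here and 86% of 18478 canonical coding transcripts searched on their own strand.

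In ICM-treated cells the mRNA of both PDGF receptors, MET and EGFR was lower than in young cells, and that of FGFR1, FGF2, FGF7 and EREG was higher. Thus 8 of the 10 genes were called in mRNA-seq, 4 higher and 4 lower, against 71% of the 13173 genes tested (34.9% higher and 36.1% lower), a share of members near that of all genes. The median change was -0.01 for the 10 genes and -0.01 for all genes. By role, 4 of the 6 receptors fell and 1 rose (median -0.71), and 3 of the 4 ligands rose and none fell (median 1.07), with HGF the ligand that was not called.

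In ICM vs young the PDGF receptors showed the steepest losses of the 10 genes. PDGFRA (chromosome 4, 55095447 to 55164412, + strand, 23 exons) was measured at 209, 243 and 246 CPM in the 3 young cultures, at 219, 244 and 251 CPM in the old and at 86.0, 98.5 and 92.4 CPM in the ICM cultures. Every ICM library lay below every young and old library, and young and old overlapped. The mRNA fell 2.53-fold in ICM vs young (log2 change -1.34, SE 0.08, edgeR adjusted p = 4.01e-13) and 2.58-fold in ICM vs old (-1.37, SE 0.08, edgeR adjusted p = 3.76e-13), while old vs young gave 0.03 (SE 0.07, edgeR adjusted p = 0.731). A second protein-coding gene model on the same strand overlaps PDGFRA exons, and its share of the reads was not tested. PDGFRB (chromosome 5, 149493402 to 149535435, − strand, 23 exons) stood at 190, 213 and 213 CPM in young, 156, 148 and 178 CPM in old and 72.9, 65.1 and 68.0 CPM in ICM cultures. The 3 conditions did not overlap for PDGFRB, and ICM was the lowest. It fell by 1.58 (SE 0.08, edgeR adjusted p = 2.08e-14) in ICM vs young and by 0.36 (SE 0.07, edgeR adjusted p = 0.000164) in old vs young. Most markers of fibroblasts and those of smooth muscle were also lower in ICM vs young. Of 10 fibroblast markers 8 were called lower and 0 higher, against 36.1% and 34.9% of all genes tested. Their summed level ranged from 13550 to 14230 CPM in ICM against 33600 to 38090 CPM in young and 30400 to 34540 CPM in old libraries. COL1A1 weighs heavily in that sum, with means of 14510 CPM in young and 3064 CPM in ICM cells. DCN (1413 CPM in young and 1571 CPM in ICM) and LUM (145 and 144 CPM) showed no such loss. All 4 smooth muscle markers were called lower in ICM vs young. They summed to 131 to 141 CPM in ICM, 988 to 1107 CPM in young and 1446 to 1458 CPM in old libraries. In old vs young 2 of them were called higher and 1 lower, against 32.4% and 33.7% of all genes tested. The part of a changed fibroblast programme in the PDGF receptor result was not tested, and in such bulk samples fewer cells of a kind and less RNA per cell cannot be told apart.

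MET, the receptor of HGF, moved in opposite directions in the treated and the old cells. MET (chromosome 7, 116312250 to 116438431, + strand, 21 exons) had 57.3, 59.0 and 61.9 CPM in young, 106, 113 and 111 CPM in old and 27.1, 31.8 and 27.0 CPM in ICM cultures. No library of 1 condition reached the range of another, with old the highest and ICM the lowest. The mRNA rose by 0.89 (SE 0.07, edgeR adjusted p = 1.68e-10) in old vs young and fell by 1.06 (SE 0.08, edgeR adjusted p = 3.38e-11) in ICM vs young. The direct comparison of ICM vs old gave -1.95 (SE 0.07, edgeR adjusted p = 3.66e-16), 3.85-fold lower in ICM and the largest difference of the 10 genes in that comparison.

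EGFR, the receptor of EGF and of epiregulin, declined to a smaller extent. EGFR (chromosome 7, 55086710 to 55279321, + strand, 28 exons) was at 134, 141 and 152 CPM in young, 129, 124 and 150 CPM in old and 108, 112 and 111 CPM in ICM cultures. The ICM libraries lay below all the others, and young and old overlapped. The log2 change was -0.37 (SE 0.07, edgeR adjusted p = 9.48e-05) in ICM vs young and -0.28 for ICM vs old (SE 0.07, edgeR adjusted p = 0.0016), the latter lost with CDS reads alone (-0.25, edgeR adjusted p = 0.0862). An antisense RNA, EGFR-AS1, overlaps EGFR exons, and the counts are not stated to use strand.

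FGFR1, a receptor of FGF2, was the one of the 6 receptors that rose in ICM vs young. FGFR1 (chromosome 8, 38257733 to 38326352, − strand, 18 exons) had 298, 307 and 281 CPM in young, 281, 260 and 299 CPM in old and 488, 510 and 493 CPM in ICM cultures. All ICM libraries were above all others, and young and old overlapped. The change came to 0.75 (SE 0.06, edgeR adjusted p = 5.18e-10) in ICM vs young, 0.83 for ICM vs old (SE 0.06, edgeR adjusted p = 1.42e-10) and -0.07 (SE 0.06, edgeR adjusted p = 0.316) in old vs young. FGFR1 exons overlap a non-coding gene on the other strand, and its mRNA counts were fractional in all 9 libraries.

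IGF1R, the receptor of IGF1 and IGF2, was higher in old cells alone. IGF1R (chromosome 15, 99191768 to 99507759, + strand, 21 exons) was at 64.9, 66.3 and 67.5 CPM in young, 87.8, 76.9 and 89.9 CPM in old and 66.0, 66.9 and 65.1 CPM in ICM cultures. Young and ICM overlapped, and every old library was above them. The rise in old vs young was 0.35 (SE 0.07, edgeR adjusted p = 0.0001), ICM vs old gave -0.36 (SE 0.07, edgeR adjusted p = 7.74e-05), and ICM vs young gave -0.0056 (SE 0.07, edgeR adjusted p = 0.948).

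In old vs young, 7 of the 10 genes were called in mRNA-seq, 4 higher and 3 lower, against 66.1% of all genes tested (32.4% higher and 33.7% lower). Of the receptors, MET and IGF1R rose and PDGFRB fell, and of the ligands FGF2 and EREG rose and HGF and FGF7 fell. In ICM vs old 9 of 10 were called, 4 higher and 5 lower, against 63.3% of all genes (30.7% higher and 32.6% lower). Of these, 5 of the 6 receptors were lower in ICM, and FGFR1 was higher. ICM vs young and old vs young share the young libraries, so their values are given side by side and not as 2 independent results.

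**Figure D1:**
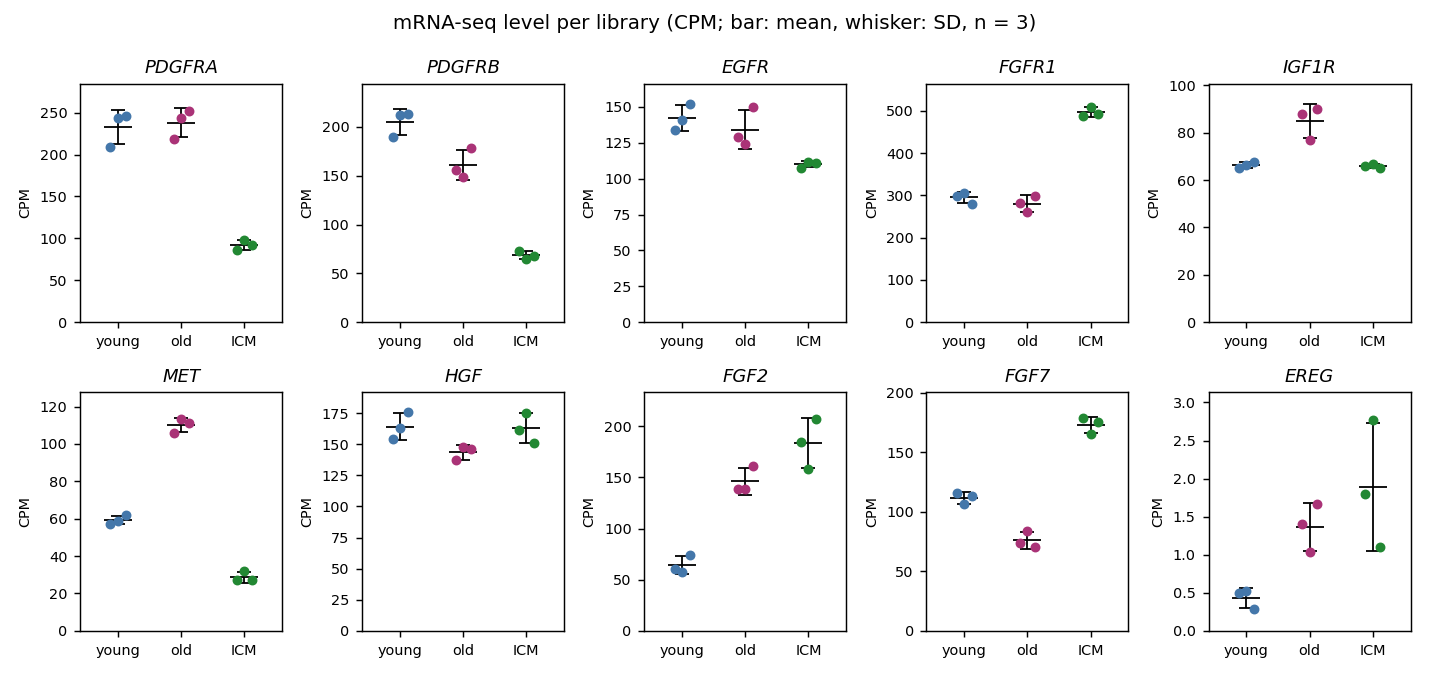
mRNA-seq level in CPM (vertical axes, from 0) of each of the 10 genes in young, old and ICM cultures. Points are libraries, the horizontal bar is the mean and the whisker the SD of 3. PDGFRA, PDGFRB and MET were lowest in ICM, FGFR1 and FGF7 highest in ICM, and MET and IGF1R highest in old.

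The ligand FGF2, a basic fibroblast growth factor stored on heparan sulphate outside cells, was higher in both old and ICM cells. FGF2 (chromosome 4, 123747837 to 123819391, + strand) stood at 60.6, 58.0 and 74.3 CPM in young, 138, 138 and 162 CPM in old and 185, 159 and 208 CPM in ICM cultures. Young did not overlap with either, and old and ICM overlapped in a single library each. The mRNA rose 2.86-fold in ICM vs young (1.51, SE 0.10, edgeR adjusted p = 3.83e-12) and 2.27-fold in old vs young (1.18, SE 0.10, edgeR adjusted p = 5.06e-10), and ICM vs old gave 0.33 (SE 0.09, edgeR adjusted p = 0.00314). FGF2 exons overlap those of NUDT6 on the other strand, and 72.9% of the FGF2 reads lay in the 3′ UTR, so the share of NUDT6 reads was not tested. With CDS reads alone the rise in ICM vs young was 1.65 (edgeR adjusted p = 8.17e-09).

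FGF7, like MET, moved in opposite directions. FGF7 (chromosome 15, 49715434 to 49780972, + strand, 4 exons) had 116, 106 and 113 CPM in young, 74.1, 84.2 and 70.2 CPM in old and 179, 166 and 176 CPM in ICM cultures. The 3 conditions did not overlap, with ICM above young and young above old. The change was 0.63 (SE 0.07, edgeR adjusted p = 2.49e-08) in ICM vs young, -0.55 (SE 0.07, edgeR adjusted p = 5.96e-07) in old vs young and 1.18 for ICM vs old (SE 0.07, edgeR adjusted p = 1.19e-12). FGF7 has partial copies elsewhere in the genome, its mRNA counts were fractional in 8 of 9 libraries, and its level as a single gene is therefore uncertain.

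HGF, the hepatocyte growth factor, differed least between conditions among the ligands. HGF (chromosome 7, 81328326 to 81399754, − strand, 18 exons) was at 154, 163 and 175 CPM in young, 137, 148 and 146 CPM in old and 161, 175 and 151 CPM in ICM cultures. Young and ICM overlapped, and the old libraries were below all others. The change was -0.19 (SE 0.07, edgeR adjusted p = 0.0168) in old vs young, 0.18 for ICM vs old (SE 0.07, edgeR adjusted p = 0.0257) and -0.01 (SE 0.07, edgeR adjusted p = 0.863) in ICM vs young. The old vs young call was lost without young replicate 3 (-0.14, edgeR adjusted p = 0.0935), without old replicate 1 (-0.16, edgeR adjusted p = 0.0844) and with CDS reads alone (-0.14, edgeR adjusted p = 0.113), and the ICM vs old call was lost without old replicate 1 (0.14, edgeR adjusted p = 0.118), without ICM replicate 1 (0.19, edgeR adjusted p = 0.0552) and without ICM replicate 2 (0.12, edgeR adjusted p = 0.159).

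EREG, an EGF-family ligand, was rare throughout. EREG (chromosome 4, 75230862 to 75254466, + strand, 5 exons) had 4, 6 and 3 reads in the young libraries, 13, 14 and 18 in the old and 24, 30 and 13 in the ICM libraries. In CPM these were 0.496, 0.523 and 0.286 in young, 1.40, 1.04 and 1.67 in old and 1.80, 2.78 and 1.10 in ICM cultures. Young lay below all others, and old and ICM overlapped. The fitted rise was 2.08 (SE 0.41, edgeR adjusted p = 0.00011) in ICM vs young and 1.61 (SE 0.45, edgeR adjusted p = 0.00332) in old vs young, and ICM vs old gave 0.47 (SE 0.31, edgeR adjusted p = 0.183). Of all EREG mRNA-seq reads, 83.3% lay in the 3′ UTR and only 11 in the CDS, too few for a test on CDS reads.

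Footprints of both PDGF receptors were lower in ICM cells, as their mRNA was. In Ribo-seq 8 of the 10 genes passed the filter, and FGF2 and EREG did not. Of the 8, 2 were called in ICM vs young, both lower, against 26.6% of the 4643 genes tested (13.7% higher and 12.9% lower), 1 in old vs young, lower, against 36.3% (19.3% higher and 17% lower), and 3 in ICM vs old, all lower, against 13.4% (5.79% higher and 7.62% lower). PDGFRA and PDGFRB were called lower in ICM in both comparisons and MET in ICM vs old, and HGF was the gene called in old vs young.

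PDGFRA footprints numbered 15, 228 and 596 in the young libraries, 426, 14 and 162 in the old and 15, 10 and 7 in the ICM libraries. Scaled to depth these were 297, 364 and 379 CPM in young, 303, 282 and 333 CPM in old and 73.9, 136 and 160 CPM in ICM cultures. The ICM libraries lay below all others, and young and old overlapped. The footprint level fell 3.53-fold in ICM vs young (-1.82, SE 0.30, edgeR adjusted p = 1.36e-05) and 3.03-fold in ICM vs old (-1.60, SE 0.30, edgeR adjusted p = 0.000176), while old vs young gave -0.22 (SE 0.19, edgeR adjusted p = 0.376). PDGFRA was the gene that stayed called in all 16 alternatives for ICM vs young and in all 16 for ICM vs old.

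PDGFRB footprints were at 119, 201 and 251 CPM in young, 220, 121 and 211 CPM in old and 88.7, 95.5 and 160 CPM in ICM cultures, where they rested on 18, 7 and 7 reads. The groups overlapped. The fitted change was -1.13 (SE 0.32, edgeR adjusted p = 0.00787) in ICM vs young and -1.05 for ICM vs old (SE 0.32, edgeR adjusted p = 0.0248). The ICM vs young call was lost without young replicate 3 (-0.89, edgeR adjusted p = 0.133), without ICM replicate 1 (edgeR adjusted p = 0.121), in DESeq2 (-0.98, adjusted p = 0.118) and with the replicate number as a block (-0.98, edgeR adjusted p = 0.0697). The ICM vs old call held in 7 of the 15 alternatives in which PDGFRB was tested, and was lost without young replicate 2 or 3, old replicate 1 or 3, or ICM replicate 1 (edgeR adjusted p from 0.0637 to 0.204), on the compared groups alone (edgeR adjusted p = 0.0739), with the replicate block (edgeR adjusted p = 0.126) and in DESeq2 (adjusted p = 0.272).

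MET footprints were few, with 4, 47 and 119 reads in young, 149, 5 and 46 in old and 9, 2 and 2 in the ICM libraries. In CPM they stood at 79.2, 75.1 and 75.7 in young, 106, 101 and 94.4 in old and 44.3, 27.3 and 45.7 in ICM cultures. As with the mRNA, the 3 conditions did not overlap, with old highest and ICM lowest, although ICM replicates 2 and 3 rested on 2 reads each. ICM vs old gave -1.32 (SE 0.43, edgeR adjusted p = 0.0351), ICM vs young -0.90 (SE 0.45, edgeR adjusted p = 0.139) and old vs young 0.42 (SE 0.24, edgeR adjusted p = 0.165). The ICM vs old call held in 6 of 15 alternatives and was lost without any of young replicates 2 and 3, old replicates 1 and 3, and ICM replicates 1 and 2 (edgeR adjusted p from 0.0667 to 0.178), and on the compared groups alone (edgeR adjusted p = 0.0685), with the replicate block (edgeR adjusted p = 0.117) and in DESeq2 (adjusted p = 0.2).

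FGFR1 footprints were at 59.4, 115 and 134 CPM in young, 131, 141 and 125 CPM in old and 192, 246 and 160 CPM in ICM cultures. Every ICM library lay above all others, but the change of 0.71 (SE 0.28) in ICM vs young had an edgeR adjusted p of 0.0571 and was not called. HGF footprints were at 218, 398 and 396 CPM in young, 264, 282 and 238 CPM in old and 325, 164 and 205 CPM in ICM cultures. The 3 conditions overlapped for HGF, and young replicate 1 was the lowest young library. ICM vs young gave -0.54 (SE 0.25, edgeR adjusted p = 0.113) and was called without young replicate 1 (-0.67, edgeR adjusted p = 0.0444) and without ICM replicate 1 (-1.18, edgeR adjusted p = 0.0207). The change in old vs young was -0.56 (SE 0.20, edgeR adjusted p = 0.03), a call that was lost without each of young replicates 2 and 3 and old replicates 1, 2 and 3 (edgeR adjusted p from 0.0726 to 0.279), in DESeq2 (-0.52, adjusted p = 0.305) and with the replicate block (-0.55, edgeR adjusted p = 0.175).

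EGFR footprints lay between 99.0 and 230 CPM over the 9 libraries, IGF1R between 0 and 161 CPM and FGF7 between 0 and 68.5 CPM, and none of the 3 was called in any comparison. The 0 of IGF1R in ICM replicate 3 allows up to 68.5 CPM and that of FGF7 in ICM replicate 2 up to 40.9 CPM, taking 3 reads as the limit of a count of 0. FGF2 had 2, 22 and 47 footprints in young, 70, 2 and 18 in old and 17, 3 and 9 in the ICM libraries, or 39.6, 35.2 and 29.9 CPM in young, 49.8, 40.2 and 36.9 CPM in old and 83.8, 40.9 and 206 CPM in ICM cultures. FGF2 was above the young range in all 3 ICM libraries. Where other settings let FGF2 into the test, its ICM vs young change ran from 1.07 to 1.70 and was called in 5 of 11 settings (adjusted p from 0.00307 to 0.199). EREG had 3 CDS footprints in the 9 libraries.

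**Figure D2:**
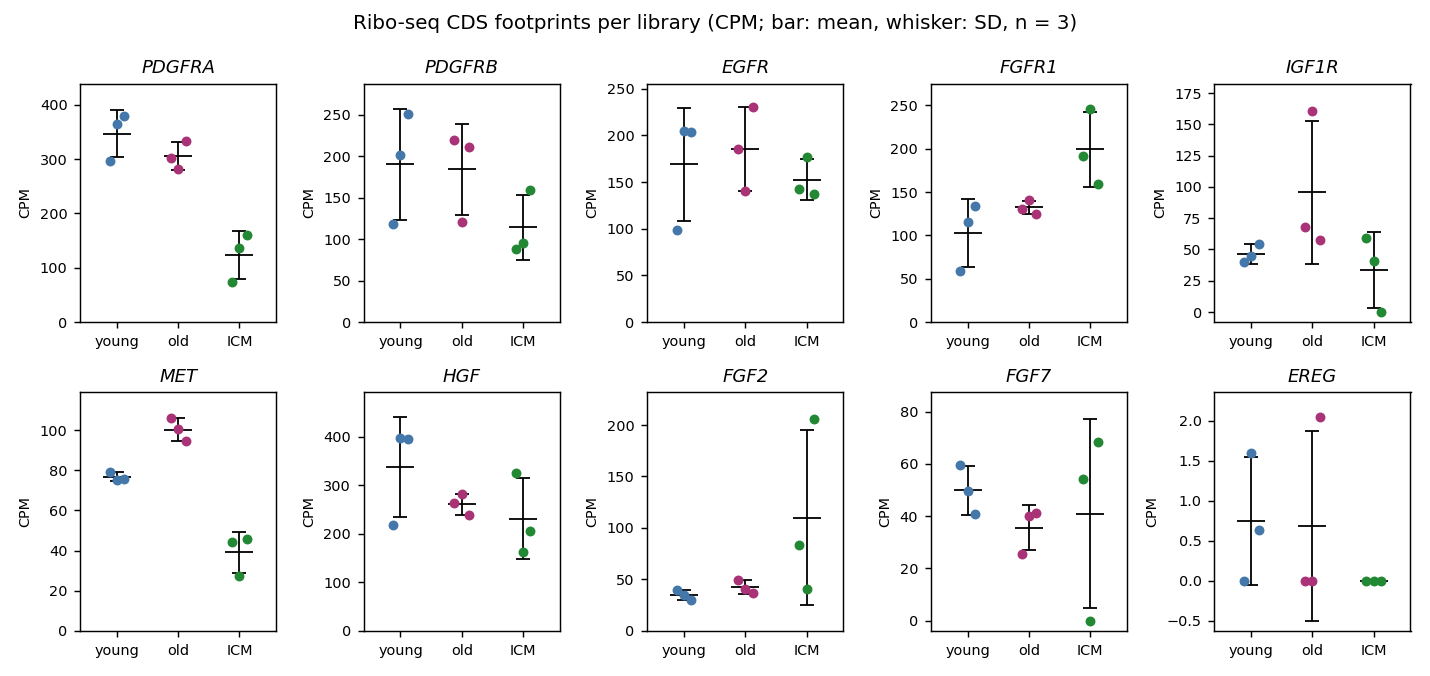
Footprints in the CDS in CPM (vertical axes) of each of the 10 genes in young, old and ICM cultures. Points are libraries, the horizontal bar is the mean and the whisker the SD of 3, so a whisker below 0 reflects spread only. PDGFRA and MET were lowest in all 3 ICM libraries, while FGF2 in ICM spread from 40.9 to 206 CPM.

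Translational efficiency is the footprint level relative to the mRNA level, and edgeR tested its change as an assay-by-condition interaction with the lysate as a block. None of the 8 genes tested was called. Of the 4618 genes in the fit, 2.08% were called for ICM vs young, 1.47% for old vs young and 0.282% for ICM vs old. At an unadjusted p under 0.05 there was 1 gene in ICM vs young, HGF, and 0 in both other comparisons, and DESeq2 also called 0 of the 8 in each. The fitted change of HGF was -0.55 (SE 0.26, edgeR adjusted p = 0.303) in ICM vs young, from -1.19 without ICM replicate 1 to -0.35 without ICM replicate 2. For PDGFRA it was -0.45 (SE 0.32, edgeR adjusted p = 0.509) and for PDGFRB 0.44 (SE 0.36, edgeR adjusted p = 0.596). The SE of the 8 genes in ICM vs young lay between 0.26 and 0.53. At this depth the test found 32.5% of simulated 2-fold changes in ICM vs young, so a shift of that size could be missed. The sign of the footprint change matched that of the mRNA change for 7 of 8 genes (ICM vs young), 5 of 8 (old vs young) and 8 of 8 (ICM vs old), comparisons that share libraries.

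**Figure D3:**
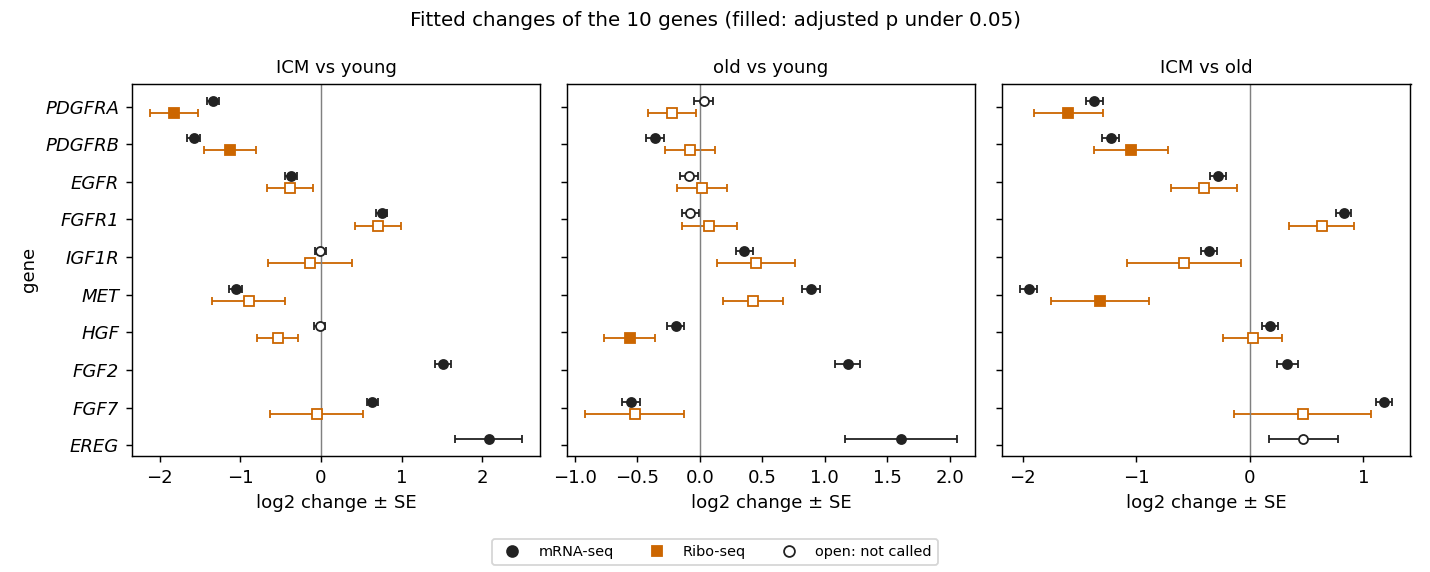
Fitted log2 change (horizontal axis) with its SE for each gene in mRNA-seq (circles) and Ribo-seq (squares), in ICM vs young, old vs young and ICM vs old. Filled symbols had an edgeR adjusted p under 0.05. PDGFRA and PDGFRB were lower in ICM in both assays, and FGF2 and EREG have no Ribo-seq point because they did not pass the filter.

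Levels were compared between genes only per length, as CDS reads per kilobase of coding sequence and per 1000000 reads. In young cells FGF7 (129 ± 12.2, SD, n = 3) and FGFR1 (122 ± 5.22) led in mRNA-seq and overlapped. HGF (76.3 ± 2.50), PDGFRA (63.2 ± 4.07), PDGFRB (57.8 ± 6.21) and FGF2 (57.4 ± 7.95) followed, of which PDGFRA, PDGFRB and FGF2 did not differ beyond their spread. EGFR (21.1 ± 2.28), MET (13.8 ± 0.651) and IGF1R (13.5 ± 0.413) were lower, with MET and IGF1R overlapping, and EREG (0.0886 ± 0.153) was last. In ICM cells the order on this mRNA scale was FGFR1 (204 ± 3.85), FGF7 (193 ± 7.43), FGF2 (181 ± 30.1), HGF (83.3 ± 9.27), PDGFRA (26.1 ± 1.82), PDGFRB (20.5 ± 1.44), EGFR (17.2 ± 0.417), IGF1R (12.3 ± 0.231), MET (7.14 ± 0.850) and EREG (0.646 ± 0.681). The FGF2 libraries spanned the ranges of both FGFR1 and FGF7 there, so its place among the first 3 is not settled. In old cells FGF2 (126 ± 23.3) stood first and FGFR1 (113 ± 6.11) next, overlapping, and MET (25.8 ± 0.981) ranked above EGFR (20.5 ± 4.89), with overlap.

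On the same scale in Ribo-seq the young order was different. HGF (155 ± 47.4) and PDGFRA (106 ± 13.4) led and overlapped, while FGFR1 (41.7 ± 15.8) was the seventh of 10. The ratio of footprint CPM to mRNA-seq CDS CPM, which needs no length, was 0.344 ± 0.133 for FGFR1 in young, 0.478 ± 0.0542 in old and 0.395 ± 0.0788 in ICM cells (SD, n = 3). For EGFR it was 2.19 ± 0.729, 2.49 ± 0.185 and 2.44 ± 0.287. The 9 FGFR1 ratios, from 0.201 to 0.534, lay below all 9 EGFR ratios, from 1.39 to 2.82, in every condition. The coding length is that of the canonical transcript, and the isoforms behind the counts are not stated.

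Where the reads of a gene fell along its transcript differed widely between genes. The 3′ UTR held 72.9% of FGF2 and 62.0% of EGFR mRNA-seq reads, pooled over the 9 libraries, against 87.8% and 60.7% of the length of their canonical transcripts. It held 22.0% of FGF7 reads against 80.3% of the length, and 24.8% of HGF reads against 61.3%. By condition, the HGF share stood at 27.1% ± 3.24 in young, 26.5% ± 1.75 in old and 20.9% ± 1.83 in ICM cells (SD, n = 3), with every ICM library below all others. For FGF7 the young libraries were the lowest, at 17.8% ± 2.29 against 24.1% ± 1.80 in old and 23.3% ± 0.130 in ICM cells, without overlap. No test was made of these shares. The 3′ UTR shares of all genes together lay between 24.6% and 28.9%.

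**Figure D4:**
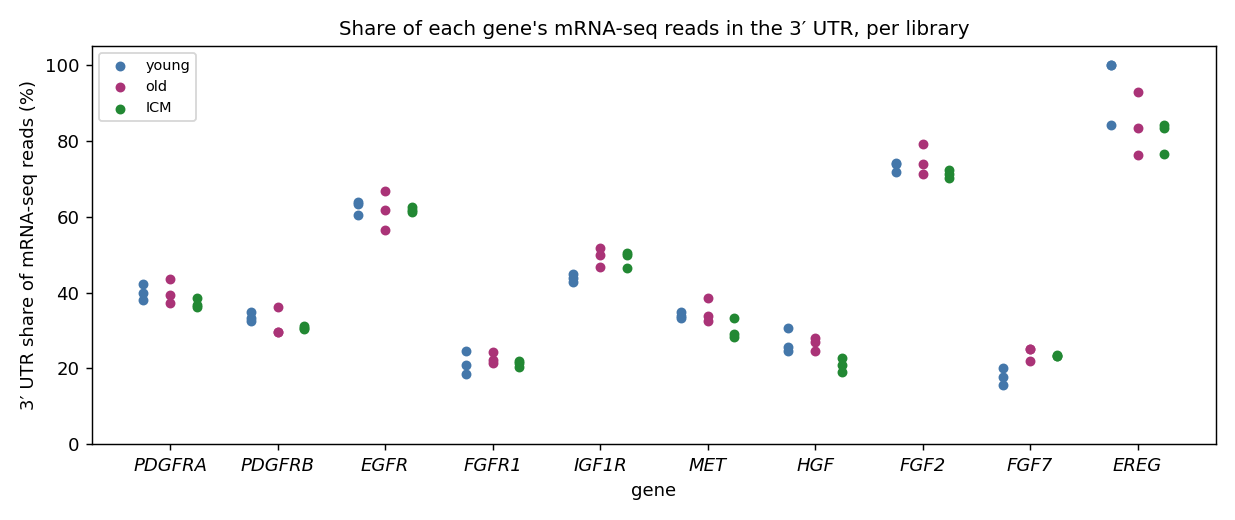
Share of the 5′ UTR, CDS and 3′ UTR reads of each gene that lay in the 3′ UTR in mRNA-seq, in percent (vertical axis), 1 point per library. FGF2, EREG and EGFR were above 55% in every library, FGFR1 and FGF7 below 26%.

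FGF7 also stood out in its 5′ UTR. Of all FGF7 footprints in the 5′ UTR, CDS and 3′ UTR, 46.5% lay in the 5′ UTR (95% exact binomial interval 41.1% to 52.1%, which covers counting error only), and FGFR1 had 12.7% (10.3% to 15.4%). IGF1R had 7.39% (4.55% to 10.9%), and the other 7 genes 0% to 2.04%. The pooled 5′ UTR share of mRNA-seq reads was 36.5% for FGF7, 14.7% for FGFR1 and 2.67% for IGF1R. Over the 9 libraries pooled, the footprint share thus exceeded the mRNA share for FGF7 and IGF1R, but not for FGFR1. The order changed with condition. FGF7 had 55.8% of footprints against 39.3% of mRNA-seq reads in young, but 27.3% against 33.9% in old cells. In ICM cells, with few footprints, it was 17.3% against 36.1%. FGFR1 had 17.2% against 13.6% in young and 10.1% against 14.55% in old cells. IGF1R was above its mRNA share in young and old cells, but had no 5′ UTR footprint in ICM cells. The footprint pools rest mostly on the deeper young and old libraries. For FGFR1 the share was 17.2% over the young and 10.1% over the old libraries, and the ICM libraries held no 5′ UTR footprint beside 39, 18 and 7 in the CDS, where the interval of ICM replicate 1 reaches 9.02%. Counted against the CDS alone, the 5′ UTR share of FGF7 footprints was 57.8% (interval 45.4% to 69.0%) in young replicate 2 and 57.3% (49.0% to 65.4%) in young replicate 3. It was 29.1% (17.5% to 43.8%) in old replicate 1, 25.6% (11.1% to 46.3%) in old replicate 3 and 20.9% (4.66% to 50.8%) in ICM replicate 1, and the other 4 libraries held fewer than 4 such footprints each in the CDS and at most 1 in the 5′ UTR. The 2 deeper young libraries were thus above the 2 deeper old ones, with intervals that meet only between young replicate 2 and old replicate 3. In mRNA-seq the same share stood at 47.6% ± 4.71 in young, 44.7% ± 0.908 in old and 47.0% ± 3.12 in ICM cells (SD, n = 3), which overlapped. The 5′ UTR share of the footprints of all genes, here with the 3′ UTR in the total, went the other way. It was 3.70% and 2.78% in those young libraries and 4.88% and 13.8% in those old ones. Pooled by condition on that scale, a lower share in old was not particular to FGF7. IGF1R had 10.2% in young and 5.6% in old, PDGFRA 2.88% and 0.968%, PDGFRB 2.04% and 1.15%, and HGF 0.897% and 0.396%. FGFR1, EGFR and MET were lower in old too, and FGF2 was higher (0% and 0.990%).

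The 5′ UTR of the canonical FGF7 transcript is 465 bases long and holds 7 ATGs before the start codon printed above. Of these, 5 are read to a stop before the start codon, the longest run having 46 codons. The other 2, which begin 35 and 26 bases before the coding sequence, are read to a stop inside it. These 2 share their stop, as do the ATGs 402 and 390 bases before the start codon. The 7 ATGs are therefore not 7 separate reading frames. Of the 1059 canonical transcripts outside chromosome 8 whose 5′ UTR is between 400 and 530 bases, 11.6% held at least 7 ATGs. FGFR1 and MET held 3 each, PDGFRA, PDGFRB and IGF1R 1 each, and EGFR, HGF, FGF2 and EREG 0. The counts give a total per transcript part, so the footprints could not be placed on any of these ATGs.

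Among 10809 genes whose mean was 5 CPM or more, the mRNA pattern most like that of each gene over the 9 libraries was found by the root mean square difference of centred log2 CPM. PDGFRA was nearest to VIM, which encodes vimentin and is one of the 10 fibroblast markers (difference 0.08, with means of 3916 CPM in young, 4231 CPM in old and 1657 CPM in ICM cells), and PDGFRB to EMP2 (0.10). MET was nearest to FILIP1L (0.09, with 120, 257 and 63.3 CPM), FGF2 to RRM2B, a p53-induced subunit of ribonucleotide reductase (0.08, with 42.2, 96.8 and 116 CPM), and FGF7 to CPT1C (0.07). FGFR1 was nearest to KREMEN1 (0.05), EGFR to PPP5C (0.04), IGF1R to DCTN1 (0.02), HGF to PPP2R1B (0.04) and EREG to CLN8 (0.23).

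The other genes of growth factor signalling were followed in mRNA-seq through 7 lists of 114 genes. Over all genes tested, 34.9% were higher and 36.1% lower in ICM vs young and 32.4% higher and 33.7% lower in old vs young, the background for the counts of each list. Where a pair of log2 changes is given for a gene, the first is that of ICM vs young and the second that of old vs young, and each was called (edgeR adjusted p of at most 0.0398) unless the text says otherwise.

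Of 15 other receptors 9 were tested, with 3 higher and 3 lower in ICM vs young and 6 higher and 3 lower in old vs young (medians -0.16 and 0.37, against -0.01 for all genes in both). KIT, the receptor of stem cell factor, rose in both, from 7.13 ± 0.615 CPM in young to 21.3 ± 1.40 CPM in ICM and 10.7 ± 0.608 CPM in old cells (SD, n = 3). AXL, a receptor of GAS6, fell in both, from 685 ± 2.79 CPM to 215 ± 7.15 CPM in ICM and 459 ± 16.8 CPM in old cells. FLT1, a VEGF receptor, moved in opposite directions, from 4.43 ± 0.126 CPM in young to 0.835 ± 0.136 CPM in ICM and 25.1 ± 1.89 CPM in old cells. IGF2R, which clears IGF2, rose in both (0.72 and 0.46), and ERBB2 differed slightly and in opposite directions (-0.16 and 0.19). INSR, the insulin receptor, was lower in old cells (-0.52, SE 0.13, edgeR adjusted p = 0.00103), and its ICM value of 0.11 was not called (edgeR adjusted p = 0.415).

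All 7 co-receptors were tested, and 3 rose and 4 fell in each comparison with young (medians -0.61 and -0.64). SDC1 and NRP1, a heparan sulphate proteoglycan and a co-receptor of VEGF and semaphorins, fell in both, SDC1 from 47.3 ± 0.821 CPM to 14.0 ± 1.25 CPM in ICM and 14.6 ± 3.08 CPM in old cells. SDC2 rose in both (0.75 and 0.39). GPC1, a glypican that binds FGF2, rose in both (1.22 and 0.33), as did CD44 (0.50 and 1.02).

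Of 23 other ligands 18 were tested, with 8 higher and 8 lower in ICM vs young (median -0.13) and 11 higher and 2 lower in old vs young (median 0.61). NRG1, a ligand of ERBB3 and ERBB4, rose in both, from 11.6 ± 1.53 CPM to 89.3 ± 14.0 CPM in ICM and 78.5 ± 7.16 CPM in old cells, and EGF rose in both from a low level (2.65 and 1.20). IGF2, a ligand of IGF1R, went in opposite directions, from 45.4 ± 2.82 CPM in young to 7.28 ± 0.878 CPM in ICM and 325 ± 38.6 CPM in old cells. Of the PDGF ligands, PDGFA fell in both (-1.39 and -0.67). PDGFD rose in ICM from 23.9 ± 3.09 CPM to 130 ± 3.55 CPM and fell in old cells to 5.49 ± 1.03 CPM. PDGFB, below 1 CPM in young and ICM cells, reached 9.87 ± 1.02 CPM in old cells.

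Among 11 genes that release or activate ligands, 8 were tested, with 4 higher and 4 lower in ICM vs young (median -0.01) and 5 higher and 2 lower in old vs young (median 0.25). PLAT, the tissue plasminogen activator, rose in both, from 204 ± 9.83 CPM to 410 ± 58.2 CPM in ICM and 1131 ± 49.6 CPM in old cells. PLAU, the urokinase, fell in ICM and rose slightly in old cells (-1.26 and 0.24). ADAM9 (0.32 and 0.30) and FURIN (0.29 and 0.86) rose in both. ADAM10 (-0.28 and 0.26) and ADAM17, which sheds EGF-family ligands (0.26 and -0.32), each moved in opposite directions.

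Of the 27 genes that relay the signal, 9 were higher and 10 lower in ICM vs young (median 0.01) and 12 higher and 5 lower in old vs young (median 0.10). NRAS (-1.34 and -1.13) and PLCG1 (-0.61 and -0.23) fell in both, and MAPK3 (0.72 and 0.78) and IRS2, an adaptor of the insulin and IGF receptors (1.23 and 0.70), rose in both. GAB1, an adaptor of MET and EGFR, rose in ICM and fell in old cells (0.72 and -0.77).

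Of the 17 feedback genes, which restrain receptor signalling, 6 were higher and 8 lower in ICM vs young (median -0.17) and 10 higher and 5 lower in old vs young (median 0.29). The MAP kinase phosphatases DUSP5 (2.13 and 0.57), DUSP4 (1.84 and 2.29) and DUSP6 (0.43 and 1.35) rose in both, as did SPRY2 (0.59 and 0.68). LRIG3 (-1.74 and -1.88) and LRIG1, which lowers EGFR levels (-0.57 and -1.18), fell in both. ERRFI1, an inhibitor of EGFR, fell in ICM and rose in old cells (-1.91 and 0.44).

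Of the 14 genes that growth factors induce, 5 were higher and 7 lower in ICM vs young (median -0.61) and 5 higher and 3 lower in old vs young (median 0.06). EGR1, an immediate early gene, fell in both, from 93.5 ± 18.7 CPM to 8.39 ± 3.24 CPM in ICM and 32.6 ± 13.1 CPM in old cells, and MYC fell in both as well (-0.97 and -0.65). CCND1, cyclin D1, rose in both, from 866 ± 16.4 CPM to 1561 ± 4.92 CPM in ICM and 3846 ± 343 CPM in old cells, and so did ETV5 (0.28 and 0.50). In ICM IER2 fell (-1.46) and PHLDA1 rose (0.53), while their old vs young values of -0.23 and 0.01 were not called (edgeR adjusted p = 0.112 and 0.9).

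**Figure D5:**
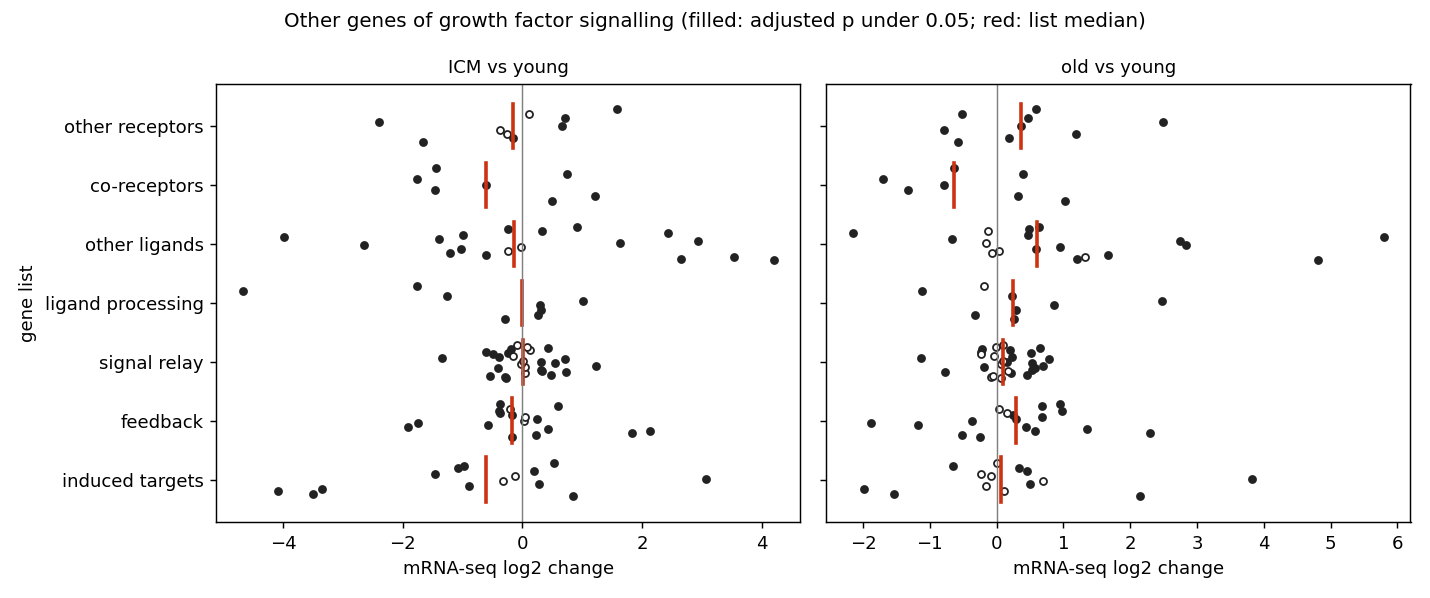
mRNA-seq log2 change (horizontal axis) of each tested gene of the 7 lists in ICM vs young and old vs young. Points are genes, filled where the edgeR adjusted p was under 0.05, and the red line is the list median. The medians run from -0.61 to 0.01 in ICM vs young and from -0.64 to 0.61 in old vs young.

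In Ribo-seq fewer genes of the lists passed the filter, from 4 of the other receptors to 14 of the 27 genes of signal relay. In footprints 6 of 10 fibroblast markers were called lower in ICM vs young and 4 of 10 in old vs young, where 12.9% and 17% of all genes tested were lower. Called higher were 0 and 1 of them, where 13.7% and 19.3% of all genes were higher. In mRNA-seq old vs young was mixed as well, with 3 fibroblast markers higher and 4 lower, against 32.4% and 33.7% of all genes.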

How the data were processed

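The authors deposited a table of estimated counts for each of 18 libraries, with a line per gene symbol and a column each for 5′ UTR, CDS, 3′ UTR and other transcript classes, without scaling to depth. Per the labels, the submitters' notes name GRCh37, STAR 2.6.0c, featureCounts, DESeq2 and deepTools, without their roles. Fractional values made up 14.1% to 23.2% of a library's values above 0. Part of each lysate gave the mRNA-seq library and the rest the Ribo-seq library, per the study's methods, and the lysate block rests on that.

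Estimated counts were rounded to whole numbers and tested in edgeR 4.0.16 (TMM, filterByExpr, quasi-likelihood test, R 4.3.3) with the 9 libraries of an assay in one fit. Translational efficiency was the interaction of assay and condition, with TMM factors computed within each assay. The threshold was an adjusted p of 0.05, and the study's own 0.15 was an alternative. DESeq2 1.42.0 was another. All 10 members are named, and from each other list up to 2 called genes with the largest rise and 2 with the largest fall, at 5 CPM or more in one group. The members and lists were chosen with earlier results of these data known. On counts simulated for ICM vs young, with a 2-fold change put into 200 genes, the test recovered 93.5% of them in mRNA-seq, 49.5% in Ribo-seq and 32.5% for translational efficiency, among 13013, 4272 and 4213 genes. P-values rest on the spread between cultures within groups, pooled over the 3 conditions of the fit and moderated across genes. They do not measure the spread of the 2 compared groups alone, and a library of the third condition could change a call. Gene models were from GENCODE on GRCh37.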

Additional observations from a re-analysis of the deposited data

Results flagged for a closer look

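In 4 genes the change of ICM cells and that of old cells, both measured against young cells, differed from each other by more than 1 on the log2 scale, which the direct comparison of ICM vs old tests. In mRNA-seq this difference was -1.95 for MET and 1.18 for FGF7, which changed in opposite directions, and -1.37 for PDGFRA and -1.22 for PDGFRB, where the ICM change was the larger loss. In Ribo-seq it was -1.60 for PDGFRA, -1.05 for PDGFRB and -1.32 for MET. With 3 cultures per group, no group was tested for single outlying libraries.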

How the results depend on the processing

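In mRNA-seq no count of the 10 genes called moved by more than 1.5 times under any alternative. Leaving out 1 lysate gave 8 calls in ICM vs young in each case, 6 to 8 in old vs young and 8 to 10 in ICM vs old. In Ribo-seq leaving out 1 lysate gave 1 to 4 calls in ICM vs young, 0 to 1 in old vs young and 1 to 3 in ICM vs old. For ICM vs young an adjusted p of 0.15 gave 5 calls, and DESeq2, the replicate block and thinning to the shallowest library 1 each. For old vs young DESeq2, no filter, the replicate block and thinning gave 0 each, and leaving out the Ribo-seq libraries under 100000 reads, an alternative chosen after seeing the data, gave 2. For ICM vs old DESeq2, the fit on the compared groups alone, the replicate block and thinning gave 1 each. Of the 10 genes, only PDGFRA and HGF were tested in all 16 Ribo-seq alternatives. MET and PDGFRB did not enter the test when thinned, so a lower count there can also reflect fewer genes tested. Translational efficiency gave 0 calls of the 8 genes under every alternative in which they were tested, with and without the lysate block. FGF7 and IGF1R were tested in 11 or 12 of the 16, depending on the comparison. Over all genes the calls ranged from 268 to 2458, 168 to 3766 and 175 to 1613 in Ribo-seq, and from 35 to 398, 18 to 452 and 3 to 103 in translational efficiency, for ICM vs young, old vs young and ICM vs old. In mRNA-seq the samples numbered 3 deviated together in each pair of conditions (r = 0.15 to 0.27), but those numbered 1 and 2 gave r from -0.20 to 0.16, and all r in Ribo-seq were at most 0.0562, so the replicate number was not taken to pair samples across conditions. The 2 libraries of a lysate gave r from -0.0793 to 0.136, so the lysate block rests on the study's methods alone. Without that block 280, 437 and 63 genes were called in translational efficiency for ICM vs young, old vs young and ICM vs old. With it the calls were 96, 68 and 13.

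The sign turned only in results that were not called. In mRNA-seq these were HGF in ICM vs young (0.13 with CDS reads) and IGF1R in ICM vs young (0.0057 with RLE scaling, 0.0058 in DESeq2 and 0.0029 on the compared groups). In Ribo-seq they were PDGFRA in old vs young (0.22 when thinned), EGFR in old vs young (-0.0125 with RLE scaling) and HGF in ICM vs old (-0.0388 in DESeq2, -0.18 with no filter, -0.0179 with the replicate block and -0.45 when thinned). In translational efficiency for ICM vs young they were MET (-0.0098 with no filter) and EGFR (0.0193 with RLE scaling, 0.0319 in DESeq2 and 0.0055 on the compared groups). Without the libraries under 100000 reads, FGF7 (0.20) and IGF1R (0.0913) turned in Ribo-seq for ICM vs young, IGF1R in translational efficiency for ICM vs young (0.0832), old vs young (-0.0443) and ICM vs old (0.13), and PDGFRB in translational efficiency for ICM vs old (-0.28). The cause was not tested.

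Leaving out 1 lysate also crossed 0 in mRNA-seq for HGF (-0.0691 to 0.0375) and IGF1R (-0.0136 to 0.006) in ICM vs young and PDGFRA in old vs young (-0.0314 to 0.0881). In Ribo-seq it did so for FGF7 (-0.89 to 0.30) and IGF1R (-1.09 to 0.0082) in ICM vs young, PDGFRB (-0.22 to 0.12), FGFR1 (-0.0164 to 0.26) and EGFR (-0.17 to 0.12) in old vs young, and FGF7 (-0.37 to 0.87) and HGF (-0.62 to 0.19) in ICM vs old. In translational efficiency it did so for MET (-0.27 to 0.32), FGFR1 (-0.23 to 0.17), EGFR (-0.12 to 0.0849) and IGF1R (-1.12 to 0.0084) in ICM vs young, IGF1R in old vs young (-0.0744 to 0.0808), and PDGFRA (-0.51 to 0.0078) and PDGFRB (-0.12 to 0.34) in ICM vs old. EGFR was called in mRNA-seq in old vs young without old replicate 3 (edgeR adjusted p = 0.0301), and EREG in ICM vs old without ICM replicate 3 (0.74, edgeR adjusted p = 0.0367). The HGF footprint change in ICM vs young ran from -1.18 to -0.41 when 1 lysate was left out and was called without young replicate 1 or ICM replicate 1. With the shallow libraries left out, the lone ICM library was assumed to vary like the others. Ribo-seq depth limits the footprint results.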
